A study of Mus musculus with 4 samples.

Results

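The transcripts described here encode the nuclear subunits of the oxidative phosphorylation system, the 5 enzyme complexes with which mitochondria turn the oxidation of fuel into ATP. Members were chosen by gene symbol alone: every row of the deposited count table whose symbol starts with Nduf and 1 of the letters a, b, c, s or v, or matches Sdha to Sdhd, Uqcr, Cox4 to Cox8, or Atp5 with its suffixes. This pattern found 83 of the 23420 gene rows. It uses no measured value, although it was chosen with earlier results of these data known. Complex I had 35 members, complex II 4, complex III 8, complex IV 19 and complex V 17. Ndufa4 was counted in complex IV, where its protein sits despite its name. Atp5s, Atp5sl and Cox7a2l match the pattern without encoding structural subunits, and values without these 3 are given beside the totals.

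RNA was sequenced from 2 mouse keratinocyte cell lines, called MK1 and MK2, with no treatment named in the labels and 2 biological replicates of each. Keratinocytes are the epithelial cells of the epidermis, and the series concerns the targets of the transcription factor p63 in mouse and human epidermis. The labels give no strain, genotype, age or passage for either line, and do not say what separated the replicates, so a p-value here measures only the spread between these samples. Each line is a single line, and MK2 against MK1 is the comparison that the design allows.

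In the respiratory chain, complex I takes electrons from NADH and complex II takes them from succinate, and both pass them to ubiquinone. Complex III moves them on to cytochrome c, complex IV hands them to oxygen, and complex V, the ATP synthase, uses the proton gradient built on the way to make ATP. All but complex II combine nuclear subunits with subunits encoded in mitochondrial DNA, which were not analysed here. In epidermis, mitochondrial respiration is known for its part in keratinocyte differentiation. The nuclear genes are known targets of NRF1, which binds a GC-rich palindrome, and of GABP, an ETS-family factor.

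Promoter sequences were read for the transcript that differed most between the lines and for the clearest exception, because both genes lie on chromosome 5 and moved in opposite directions. Atp5k encodes subunit e of the ATP synthase and was higher in MK2, whereas Cox6a1 encodes a subunit of cytochrome c oxidase and was lower. The 250 bases before each transcription start are given 5′ to 3′ on the coding strand, which is the minus strand for both genes, from RefSeq on GRCm38.p6 at chr5:108434400-108434649 for Atp5k and chr5:115348959-115349208 for Cox6a1. Capitals mark the NRF1 word, GCGCA and GCGC with any 1 base between them.
Atp5k: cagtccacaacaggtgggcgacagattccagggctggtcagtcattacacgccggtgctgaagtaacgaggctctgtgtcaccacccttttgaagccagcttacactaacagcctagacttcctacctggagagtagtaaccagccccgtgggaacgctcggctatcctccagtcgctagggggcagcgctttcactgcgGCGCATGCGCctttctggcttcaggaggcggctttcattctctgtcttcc
Cox6a1: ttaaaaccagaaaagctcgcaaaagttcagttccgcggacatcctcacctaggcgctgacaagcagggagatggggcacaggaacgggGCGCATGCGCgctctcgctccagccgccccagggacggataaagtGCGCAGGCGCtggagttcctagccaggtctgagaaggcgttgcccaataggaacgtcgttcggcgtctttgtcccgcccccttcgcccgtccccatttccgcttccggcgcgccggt

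The Atp5k promoter held the word GCGCATGCGC from base -50 to base -41 relative to the start. The Cox6a1 promoter held the same word from -162 to -153, and GCGCAGGCGC from -117 to -108. Both also held the ETS word CCGGAAG, read on the other strand as CTTCCGG, from 12 to 18 past the start of Atp5k and from -16 to -10 in Cox6a1, and it shared no base with an NRF1 word. So the pair with opposite changes carried the same words, at different distances from the start.

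Promoters of 66 of the 83 members were found in the RefSeq table. Each window ran from 250 bases before the start to 50 after it, and both strands were searched. The NRF1 word occurred in 17 of the 66 members (25.8%), against 11.6% of the 9210 other tested genes and 5.19% of all 27025 genes in the table. The ETS word CCGGAAG occurred in 16 members (24.2%), against 20.3% of the other tested genes and 9.93% of all genes, and the YY1 word AAGATGG in 10 (15.2%), against 8.4% and 7.28%. Among 27 members higher in MK2, 8 held the NRF1 word and 9 the ETS word. Among 33 members that were not called, 7 held the NRF1 word and 6 the ETS word. A match describes letters in the window, not a bound site.

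Libraries held 25237391 to 30261111 counts, and counts were made without molecular identifiers, so floors cover counting error only. The standard errors below come from the fit and include the spread between replicate libraries. A library with 0 counts of a gene allows up to 3 counts, or 0.0991 to 0.119 CPM (counts scaled for library depth). Among keratinocyte markers, Krt5 ran from 7021 to 8859 CPM and Krt14 from 7594 to 9176 CPM. Of the 12 markers, 1 was higher and 5 lower in MK2, where 25.9% and 28.6% of all tested genes were. As log2 of MK2 minus MK1, Itga6 changed by 0.83, Cdh1 by -1.14, Col17a1 by -1.06, Dsp by -0.81, Perp by -0.57 and Dsg3 by -0.44. Krt15 had 4.77 and 4.47 CPM in MK1 and 27.9 and 0.247 CPM in MK2, so its MK2 replicates disagreed. The 12 B-cell and leukocyte markers summed to 39.4 and 40.1 CPM in MK1 and to 0.755 and 0.952 CPM in MK2. All 8 of them that were tested were lower in MK2, while Cd3e, Itgam, Lyz2 and Fcer1g were near 0 in all 4 libraries. The 14 striated muscle markers summed to 11.7 and 12.9 CPM in MK1 and to 21.6 and 87.5 CPM in MK2, with 72.5 CPM in MK2 replicate 2 from Acta1, and Myh2, Myh4, Myh7, Myod1 and Myog at 0 in all 4. The 8 fibroblast markers summed to 3.35 to 3.95 CPM in MK1 and 1.03 to 1.41 CPM in MK2, with Dcn and Lum at 0. The 6 melanocyte markers summed to 2.68 to 3.28 CPM, and the 5 endothelial markers to 15.0 to 27.5 CPM, most of it Kdr, with Cdh5 at 0. The part of these marker levels in the results below was not tested. In bulk RNA, fewer cells of a type and less RNA per cell cannot be told apart.

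Where oxidative phosphorylation transcripts were called, nearly all were higher in MK2, but 45 of 75 did not pass the test. Of the 83 members, 75 passed the filter on low counts, 28 were higher in MK2 and 2 were lower, and 45 did not pass an adjusted p of 0.05 (edgeR's quasi-likelihood test over all 12479 tested genes). Across all tested genes 54.6% were called, 25.9% as higher and 28.6% as lower, so the 40% of members called is a smaller share than the background. Fold changes here are log2 values of MK2 minus MK1. Their median over the 75 members was 0.20, against -0.01 over all tested genes, with 53 members above 0 and 22 below. The members' median exceeded that of all genes by 0.21, and by 0.07 with a gene-length trend removed by least squares or 0.14 with a robust one. The range ran from -0.43 for Cox6a1 to 1.13 for Atp5k.

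Without the 3 matches that are not subunits, 28 of 72 tested subunits were higher and 2 lower, with a median of 0.25. Counts of 25 members are less certain, because 10% or more of their sequence or exon bases is shared with other genes or pseudogenes, among them Ndufs3, Ndufb4, Uqcrc2, Cox5b, Cox4i1 and Atp5l. Without these 25, 19 were higher and 1 lower, with a median of 0.25. Both MK2 libraries lay above both MK1 libraries for 43 members and below them for 15, where 39.5% and 40.9% of all tested genes did so. Changes stayed small: 64 of 75 members (85.3%) lay within 0.5 of 0, against 61.8% of 7376 other genes with a mean of 20 CPM or more. Dropping MK1 replicate 1 gave a members' median of 0.16, and dropping MK1 replicate 2 gave 0.24. Such fits take the spread from the MK2 pair alone, and they called fewer members and fewer of all tested genes. How far the member calls rest on the MK1 libraries can therefore not be told from these fits. Between replicates, the median difference over members was 0.11 in MK1 and 0.04 in MK2, replicate 2 minus replicate 1.

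**Figure D1:**
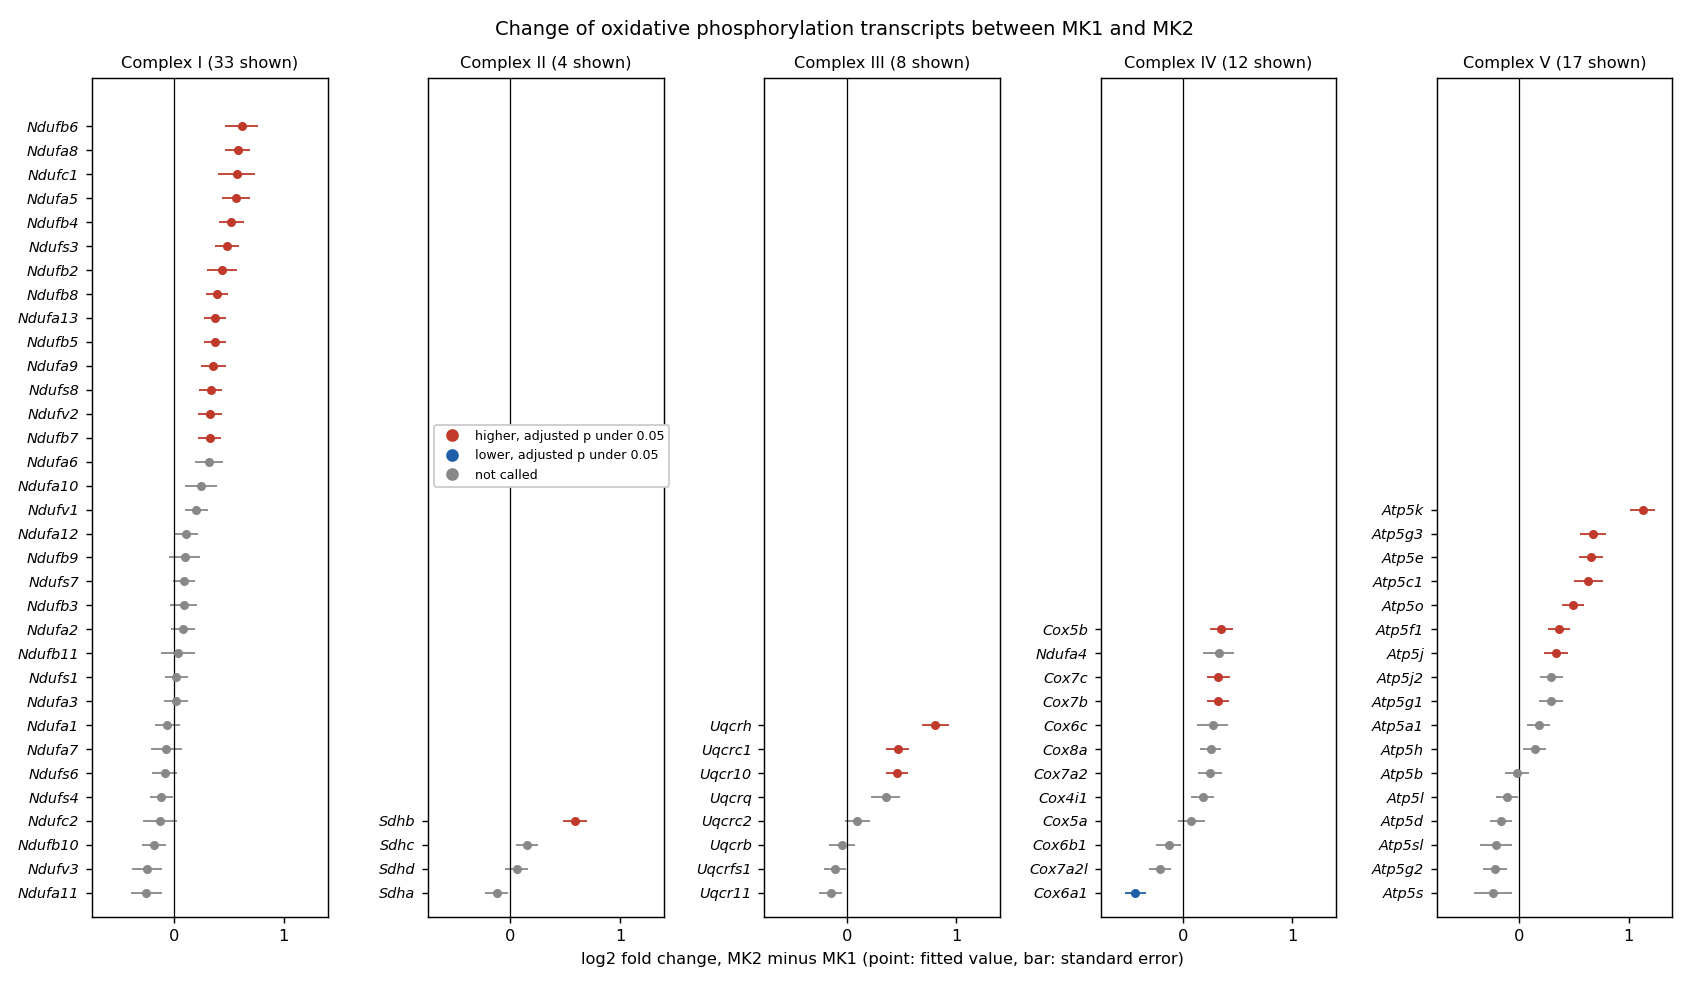
Log2 fold change of the tested members, MK2 minus MK1 (x axis), by complex, with 1 member of complex I not shown; points are fitted values from 2 libraries per line, bars are standard errors, red marks members called higher and blue members called lower. In all 5 complexes most points lie to the right of 0, and Atp5k at 1.13 stands farthest from it.

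As a background for the calls in each complex below, 25.9% of all tested genes were higher and 28.6% lower. Complex I had 34 tested members, of which 14 were higher, 1 was lower and 19 were not called, with a median of 0.16. Its 7 core subunits, which carry NADH oxidation and electron transfer to ubiquinone, gave 3 higher calls and 1 lower. Ndufs3, a core subunit beside the quinone site, stood at 57.9 and 56.8 CPM in the MK1 replicates and 75.7 and 84.8 CPM in those of MK2. Both MK2 libraries were above both of MK1, and the change was 0.48 ± 0.11 (SE, n = 2 libraries of each line, as for every SE below; adjusted p = 0.00939, edgeR). Ndufs8, an iron-sulfur subunit on the way to quinone, changed by 0.33 (adjusted p = 0.0333), and Ndufv2, the iron-sulfur partner of the NADH-binding subunit, also by 0.33 (adjusted p = 0.0425).

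Ndufv1, which binds NADH and FMN, had 127 and 122 CPM in MK1 and 139 and 148 CPM in MK2, with a change of 0.20 that did not pass (adjusted p = 0.131). Ndufs1, the largest iron-sulfur subunit of the NADH-oxidising arm, had 84.7 and 90.8 CPM in MK1 and 91.3 and 86.6 CPM in MK2, overlapping between the lines (change 0.02). Ndufs7, which holds the last iron-sulfur cluster before quinone, changed by 0.09 and was not called.

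Of the 10 tested subunits named Ndufb, accessory subunits of the membrane arm, 6 were higher and none lower, with a median of 0.35. With the median of the other genes on each chromosome subtracted, their median was 0.22, near the 0.23 of all members. Ndufb6 was the largest change in complex I, with 31.3 and 41.1 CPM in MK1 and 54.7 and 56.1 CPM in MK2. Both MK2 libraries were higher, although the MK1 replicates were themselves apart (change 0.61 ± 0.15, adjusted p = 0.0117). Part of its transcript, 31.6% of 50-base words, is shared with Smim27, so its count is uncertain. Ndufb4, Ndufb2, Ndufb8, Ndufb5 and Ndufb7 changed by 0.52, 0.43, 0.39, 0.37 and 0.33 in that order, and each was called higher. Ndufb9, Ndufb3 and Ndufb11 lay between 0.04 and 0.10, and Ndufb10 was at -0.19, all not called.

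The 12 Ndufa subunits of complex I, accessory proteins that surround the core, gave 4 higher calls and none lower. Ndufa8 had 58.3 and 61.7 CPM in MK1 and 83.9 and 95.4 CPM in MK2. The lines did not overlap, and the change was 0.58 ± 0.11 (adjusted p = 0.00523). Ndufa5, Ndufa13 and Ndufa9 changed by 0.57, 0.37 and 0.36 and were also called, whereas Ndufa6 (0.32) and Ndufa10 (0.25) were not. Ndufa2, the complex I subunit with the highest level per transcript length (403 TPM, which scales counts for gene length and depth, as a mean over the 4 libraries), had 96.6 and 106 CPM in MK1 and 102 and 112 CPM in MK2, which overlapped. Ndufa3 moved least, at 0.01, with 41.0 and 41.7 CPM in MK1 and 39.4 and 44.0 CPM in MK2. Ndufa12, Ndufa1, Ndufa7 and Ndufa11 changed by 0.11, -0.06, -0.07 and -0.26, and none was called.

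Of the pair of Ndufc membrane-arm subunits, Ndufc1 was higher and Ndufc2 was not called. Ndufc1 had 16.4 and 20.8 CPM in MK1 and 25.1 and 30.1 CPM in MK2, without overlap (change 0.57 ± 0.17, adjusted p = 0.0252), and Ndufc2 changed by -0.13. The accessory subunits Ndufs4, Ndufs6 and Ndufv3 lay at -0.12, -0.09 and -0.25, and none passed. The remaining member of complex I, Ndufs5, had 0 counts in all 4 libraries. Its exons overlap those of the row BC002163 over 95.1% of their bases, and that row had 0 and 1 counts in MK1 and 4 and 0 in MK2, so the level of Ndufs5 cannot be read from this table.

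Complex II, succinate dehydrogenase, is encoded by 4 genes, of which only Sdhb was called in the main comparison. Sdhb, the iron-sulfur subunit, had 41.1 and 45.5 CPM in MK1 and 66.5 and 64.0 CPM in MK2. The lines were clearly apart, with a change of 0.59 ± 0.11 (adjusted p = 0.00411). Sdha, the flavoprotein that oxidises succinate and the partner of Sdhb, had 142 and 142 CPM in MK1 and 135 and 125 CPM in MK2, a change of -0.13 that did not pass (adjusted p = 0.324). The membrane anchors Sdhc and Sdhd changed by 0.15 and 0.06. Sdhd, the highest of the 4 per length at 184 TPM, ran from 109 to 122 CPM with the lines overlapping. On the per-length scale Sdha and Sdhb stood at 104 and 84.4 TPM in MK1 and at 90.9 and 122 TPM in MK2, so their order differed between the lines. Sdha lies on chromosome 13 and Sdhb on chromosome 4, whose other genes had median changes of -0.42 and 0.37. Sdha stood 0.30 and Sdhb 0.22 above these medians, so relative to its chromosome Sdha was not the lower of the pair.

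In complex III, 3 of 8 members were higher and none lower, with a median of 0.23. Uqcrh, the hinge protein that helps cytochrome c dock, had 65.9 and 76.8 CPM in MK1 and 132 and 119 CPM in MK2. MK2 was higher in both replicates, 1.75-fold as a fitted value (log2 0.81 ± 0.12, adjusted p = 0.00188). Uqcrc1, a core protein on the matrix side, had 321 and 351 CPM in MK1 and 476 and 452 CPM in MK2 (0.47 ± 0.11, adjusted p = 0.00963). Its structural partner Uqcrc2 had 167 and 192 CPM in MK1 and 199 and 185 CPM in MK2, overlapping, with a change of 0.10. The small subunit Uqcr10 changed by 0.46 (adjusted p = 0.00775).

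Uqcrfs1, the Rieske iron-sulfur protein that carries electrons toward cytochrome c, had 75.7 and 76.7 CPM in MK1 and 71.3 and 70.2 CPM in MK2. MK2 was the lower line without overlap, but the change of -0.11 did not pass (adjusted p = 0.39). Uqcrq, the highest of the complex per length at 598 TPM, had 127 and 130 CPM in MK1 and 146 and 182 CPM in MK2. Its change of 0.36 fell just short (adjusted p = 0.053), and it was called in 5 of the alternatives, DESeq2 among them (adjusted p = 0.0423). Uqcrb was nearest to 0 at -0.04, with 44.3 and 50.8 CPM in MK1 and 44.6 and 47.6 CPM in MK2. Uqcr11 lay at -0.15 and was not called.

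**Figure D2:**
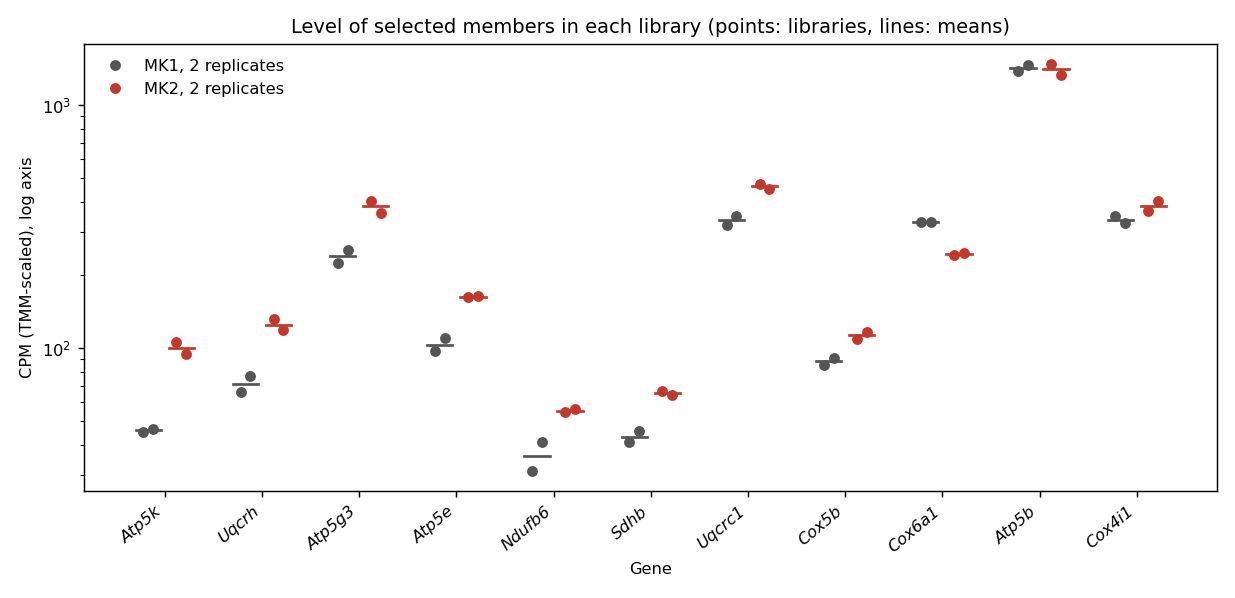
Level of 11 members in each library as CPM with TMM-scaled library sizes (log y axis); points are libraries, grey for MK1 and red for MK2, and short lines are means of 2 replicates. The MK2 points of Atp5k, near 100 CPM, lie well above the MK1 points near 46 CPM, Cox6a1 lies lower in MK2, and the points of Atp5b overlap.

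In complex IV, cytochrome c oxidase, all 12 tested members lay within 0.5 of 0. They held 3 higher calls and 1 lower, with a median of 0.25. Cox6a1, the regulatory subunit with the highest level per length in the complex (1107 TPM), had 330 and 330 CPM in MK1 and 242 and 247 CPM in MK2. The replicates of each line were nearly equal, MK2 was lower, and the change was -0.43 ± 0.098 (adjusted p = 0.0095), called in 13 of 15 alternatives and lost when either MK1 library was left out. Some 12.3% of its 50-base words occur in a pseudogene transcript.

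Cox5b, which binds zinc, had 85.6 and 91.3 CPM in MK1 and 109 and 116 CPM in MK2, without overlap (0.35 ± 0.10, adjusted p = 0.026). Cox7c and Cox7b, small membrane subunits, changed by 0.33 and 0.32 (adjusted p = 0.0382 and 0.0294). Cox7c was the less stable of the pair, called in 6 of 15 alternatives. Cox4i1, the largest nuclear subunit, had 348 and 328 CPM in MK1 and 366 and 402 CPM in MK2, and its change of 0.18 was not called (adjusted p = 0.187). Ndufa4, Cox6c, Cox8a and Cox7a2 lay between 0.25 and 0.33 with non-overlapping lines and did not pass. Cox5a moved least, at 0.08, with 139 and 162 CPM in MK1 and 148 and 169 CPM in MK2. Cox6b1 lay at -0.13 and Cox7a2l, a supercomplex assembly factor, at -0.21.

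Several complex IV subunits exist as ubiquitous and tissue-restricted isoforms, and the 4 libraries held almost only the ubiquitous ones. The 7 isoforms known from heart, muscle, lung or testis all failed the count filter. Cox6a2, the heart and muscle partner of Cox6a1, had 0 and 1 counts in MK1 and 1 and 2 in MK2. Cox7a1, the muscle partner of Cox7a2, had 11 and 5 counts in MK1 and 5 and 5 in MK2, or 0.965% and 0.442% of the TPM of the pair in MK1 and 0.435% and 0.363% in MK2. Cox4i2, the lung isoform, had 4 counts in MK2 replicate 2 and none elsewhere, and Cox6b2, a testis isoform, 1 count in MK2 replicate 1. Cox7b2, Cox8b and Cox8c had 0 counts in all 4 libraries, which allows at most 0.119 CPM in the shallowest. In MK2 replicate 2, the library with the high Acta1 level, the muscle isoforms Cox6a2, Cox7a1 and Cox8b had 2, 5 and 0 counts.

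Complex V, the ATP synthase, had 17 tested members with 7 higher and none lower, and a median of 0.29. Atp5k (chromosome 5, 108433253 to 108434378, mm10, minus strand), whose promoter is printed above, encodes subunit e, which joins synthase dimers in the inner membrane. It had 45.3 and 46.7 CPM in MK1 and 106 and 94.6 CPM in MK2, so both MK2 libraries lay far above both of MK1. The fitted change was 1.13 ± 0.11, or 2.18-fold (adjusted p = 0.000351), and every one of 15 alternatives called it, between 0.87 and 1.21. Its neighbours in the membrane part, subunit f (Atp5j2) and subunit g (Atp5l), changed by 0.30 and -0.11 and were not called. Atp5l shares 84.8% of its 50-base words with other transcripts, mostly pseudogenes, so its count is uncertain.

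The rotor of the synthase consists of a ring of subunit c and a central stalk. Subunit c is made from 3 genes whose mature proteins are identical. Atp5g3 had 225 and 255 CPM in MK1 and 405 and 362 CPM in MK2, higher in both MK2 libraries (0.68 ± 0.12, adjusted p = 0.00333). Atp5g2 had 185 and 210 CPM in MK1 and 165 and 175 CPM in MK2, with MK2 lower but not called (-0.22, adjusted p = 0.134), and 38.3% of its words are shared with pseudogenes. Atp5g1 changed by 0.29 and fell short of the threshold (adjusted p = 0.0608).

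As shares of the summed TPM of these 3 genes, Atp5g3 held 44.8% and 45.0% in MK1 and 59.7% and 55.1% in MK2, and Atp5g2 held 38.8% and 39.1% in MK1 and 25.5% and 27.9% in MK2. The share of Atp5g1 stayed between 14.7% and 17% in all 4 libraries. The sum itself was 1565 and 1723 TPM in MK1 and 2016 and 1916 TPM in MK2. Thus more subunit c transcript in MK2 came with a different split between genes that encode the same product. No test was made on shares or sums.

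In the central stalk, which turns inside the catalytic head, Atp5e (epsilon) had 97.3 and 110 CPM in MK1 and 163 and 163 CPM in MK2 (0.66 ± 0.11, adjusted p = 0.00271). Atp5c1 (gamma) had 160 and 190 CPM in MK1 and 293 and 250 CPM in MK2 (0.63 ± 0.13, adjusted p = 0.00738). Both were higher in both MK2 libraries, whereas Atp5d (delta) was at -0.16 and not called (adjusted p = 0.213). Atp5e and Atp5c1 lie on chromosome 2 and Atp5d on chromosome 10, whose other genes had median changes of 0.35 and -0.33. Above these medians Atp5e stood by 0.30, Atp5c1 by 0.28 and Atp5d by 0.17. In the peripheral stalk, which holds the head still, Atp5o, Atp5f1 and Atp5j changed by 0.49, 0.37 and 0.34 and were called, and Atp5h changed by 0.14 and was not. All 4 peripheral stalk genes share 10% or more of their sequence or exon bases with other genes, Atp5j with its neighbour Gabpa, so these counts are less certain.

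Neither gene of the catalytic head was called. Atp5b, the beta subunit that makes ATP and the highest of all members per length (1540 TPM), had 1377 and 1470 CPM in MK1 and 1473 and 1334 CPM in MK2. These overlapped, with a change of -0.02 ± 0.11 (adjusted p = 0.886). Atp5a1, the alpha subunit, had 975 and 1065 CPM in MK1 and 1182 and 1130 CPM in MK2, a change of 0.18 that did not pass (adjusted p = 0.184). The non-subunits Atp5s and Atp5sl lay at -0.24 and -0.21, and at 11.4 and 10.6 TPM they had the lowest levels of all tested members.

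Summed per complex, the per-length level of complex V was 8215 and 8729 TPM in MK1 and 9990 and 9479 TPM in MK2. Complex III summed to 2407 and 2533 TPM in MK1 and to 2930 and 2942 TPM in MK2. In both, MK2 stood above MK1 without overlap, as it did for complex I (5848 and 6204 against 6436 and 6633 TPM) and by a smaller margin for complex II (514 and 523 against 567 and 534 TPM). Complex IV overlapped, with 6843 and 7150 TPM in MK1 and 7000 and 7143 TPM in MK2. All 83 members together took 0.985% and 1.06% of counts in MK1 and 1.14% and 1.13% in MK2.

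**Figure D3:**
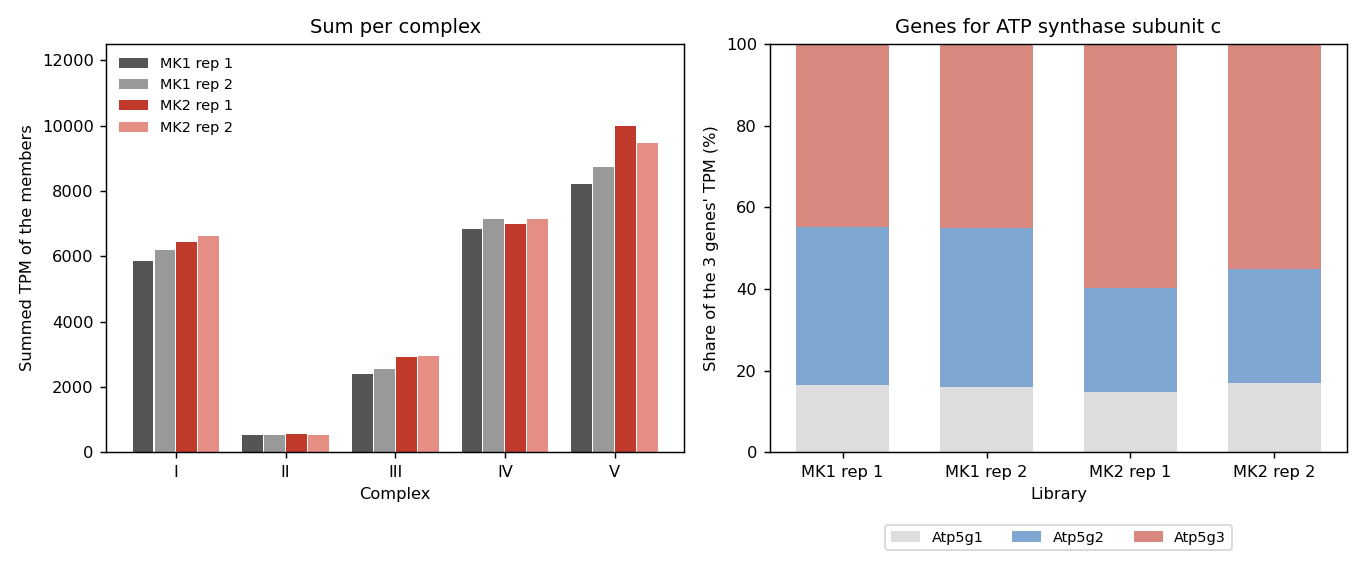
Left, summed TPM of the members of each complex in each of the 4 libraries. Right, share of Atp5g1, Atp5g2 and Atp5g3 in their summed TPM: Atp5g3 holds 44.8% and 45.0% in MK1 and 59.7% and 55.1% in MK2.

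Calls fell both on a list of core subunits and on the other members. The list held 17 members: the 7 core subunits of complex I, complex II, Uqcrfs1, Uqcrc1, Atp5a1, Atp5b, Atp5c1 and Atp5d. Not all of them are catalytic, since Uqcrc1 is a core protein, Sdhc and Sdhd are membrane anchors, and Atp5c1 and Atp5d belong to the stalk. Of the 17, 6 were higher and 1 lower, with a median of 0.15. Of the 58 other tested members, 22 were higher and 1 lower, with a median of 0.25, where 25.9% of all tested genes were higher and 28.6% lower. The difference between these medians was not tested. Atp5k, Uqcrh, Atp5g3 and Atp5e were the 4 of 30 called members that all 15 alternatives called. Their transcripts share 7.14% or less of their 50-base words with other genes, and none for Atp5g3 and Atp5e. None of the 15 alternatives subtracted chromosome medians. Uqcrh lies on chromosome 4 and Atp5g3 and Atp5e on chromosome 2, whose other genes had median changes of 0.37 and 0.35. Above these medians Uqcrh stood by 0.44, Atp5g3 by 0.32 and Atp5e by 0.30, and Atp5k stood 1.15 above that of chromosome 5.

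Changes of members also varied with the chromosome on which they lie. All 5 tested members on chromosome 2, all 3 on chromosome 4, all 3 on chromosome 16 and all 3 on chromosome 3 were higher in MK2, whereas 0 of 5 on chromosome 10 and 1 of 6 on chromosome 13 were. The other tested genes had a median of 0.35 on chromosome 2, 0.37 on chromosome 4 and 0.28 on chromosome 16, against -0.33 on chromosome 10 and -0.42 on chromosome 13. On chromosome 3 their median was 0.06, near that of all genes. On the chromosomes whose other genes had a median above 0.15 (2, 4, 8, 16 and 18), 13 of 16 members were higher, where 43.6% of 3155 other genes were. On those with a median below -0.15 (9, 10, 12, 13 and 14, the last without a member), 2 of 17 members were higher, where 11.5% of 2584 other genes were. On the chromosomes in between, 13 of 42 members were higher, against 23% of 6659 other genes.

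Relative to their own chromosomes, members stood a little high on most. Their change exceeded the median of the other genes of the chromosome for 60 of 75 members (80%), against 49.96% of other genes, and for all 17 on the chromosomes with the lowest medians. These medians cover other genes of any level and length, so they are not matched to the members. Over all chromosomes, other genes at 20 CPM or more and under 1000 bases had a median of 0.15, against -0.01 for all other genes. With each chromosome's median subtracted, the members' median was 0.23 and their SD fell from 0.30 to 0.25. Pearson's r between a member's change and its chromosome's median was 0.59 over the 75 members, which share 4 libraries and, in part, a chromosome. Uqcrc1 on chromosome 9 and Cox7c on chromosome 13 were the 2 called members on low chromosomes, 0.70 and 0.75 above the medians there. Atp5k and Cox6a1 on chromosome 5, whose median was -0.02, stood 1.15 above and 0.41 below it. Members on chromosome 17, by contrast, had a median 0.15 below that of their chromosome, although Ndufv2 there was called higher. Chromosome Y holds no member and was left out of the chromosome groups above. Its 6 tested genes had a median of 12.07, with 66.7% higher and 16.7% lower in MK2. Whether the lines differ in the copy number of any chromosome was not tested.

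**Figure D4:**
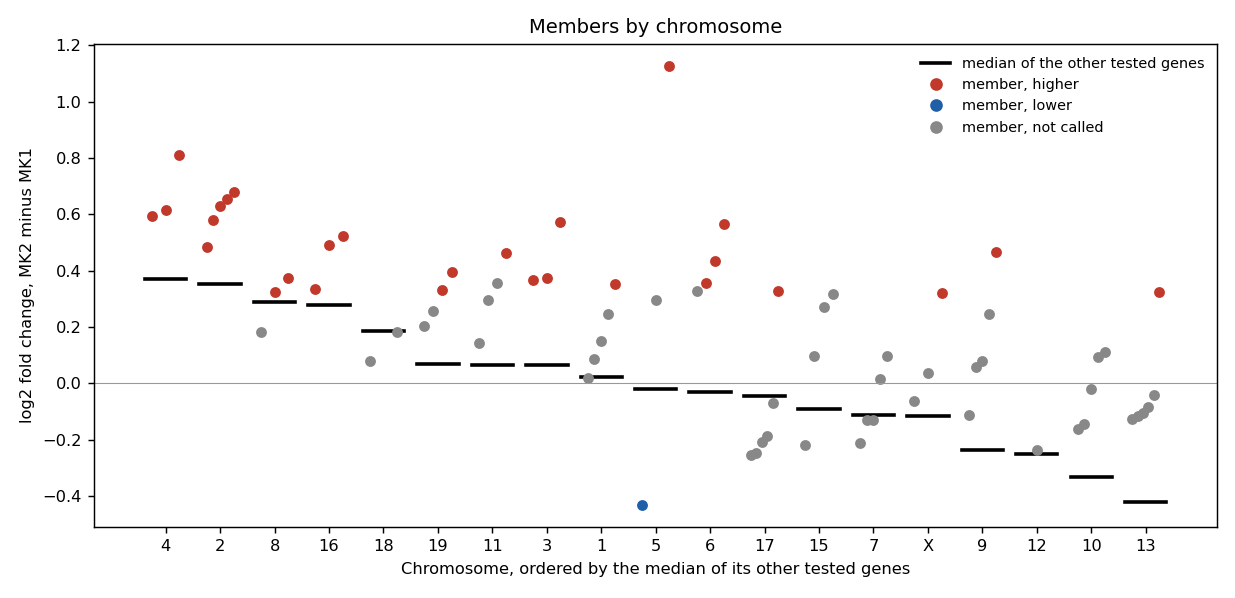
Log2 fold change of the tested members, 1 of them not shown, MK2 minus MK1 (y axis), by chromosome, ordered by the median change of the chromosome's other tested genes (black lines); points are members, coloured by call. Members are higher on chromosomes 4 and 2, where the other genes had medians of 0.37 and 0.35, and 60 of the 75 tested lie above their chromosome's median.

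Members are short and abundant, which sets their background apart from that of all genes. Their median exon length was 659 bases, against 2247 over all rows. Among other genes with a mean of 20 CPM or more, 31% were higher and 23.2% lower, with a median of 0.08. Among the 416 of these shorter than 1000 bases, 32.5% were higher and 17.5% lower, with a median of 0.15. The members' 37.3% higher calls therefore lie near the share for short abundant genes, and their 2.67% lower calls lie below it. The 49 tested members shorter than 1000 bases had a median of 0.27 and the 26 longer ones a median of 0.12.

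Subunits and carriers outside the name pattern gave 7 higher and 3 lower calls among 17 tested genes, with a median of 0.19. As a background, 25.9% of all tested genes were higher and 28.6% lower. With chromosome medians subtracted, the median was 0.28. Cycs, somatic cytochrome c, had 129 and 156 CPM in MK1 and 236 and 238 CPM in MK2 (0.74, adjusted p = 0.0027), and Cyc1, the cytochrome that hands it electrons in complex III, changed by 0.19 without a call. Dhodh, which feeds electrons from pyrimidine synthesis into ubiquinone, changed by 0.90. Slc25a4 and Slc25a5, the ADP and ATP carriers, changed by 0.82 and 0.48, and all of these but Cyc1 were called higher. The 3 lower calls were Etfa, Etfb and Etfdh, which bring electrons from fatty acid oxidation to ubiquinone and are named together here after their values were seen. Etfdh had 65.6 and 64.9 CPM in MK1 and 38.1 and 37.0 CPM in MK2, without overlap (-0.80 ± 0.10, adjusted p = 0.000956). Etfa and Etfb changed by -0.67 and -0.63.

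Assembly factors, which build the complexes without staying in them, were mostly higher for complexes I and IV where they were called. Of all tested genes, 25.9% were higher and 28.6% lower. For complex I, 8 of 15 were higher and 2 lower (median 0.34), the largest changes at 10 CPM or more being Ndufaf5 at 1.21, which modifies a core subunit, and Ndufaf3 at -0.72. For complex IV, 8 of 19 tested were higher and 2 lower (median 0.29), from Coa7, listed as Selrc1, at 1.63 to Cox19, a copper-pathway protein, at -0.56. For complex III, 3 of 6 were higher, with Uqcc1, listed as Uqcc, at 0.50. For complex II, 1 of 4 was higher, Sdhaf3, listed as Acn9, at 0.72, named after its value was seen. The 3 complex V factors changed by 0.01 to 0.10 and were not called. With chromosome medians subtracted, the medians were 0.28 for complex I, -0.10 for II, 0.12 for III, 0.22 for IV and -0.01 for V. Ndufaf5 lies on chromosome 2 and Coa7 on chromosome 4, where other genes had medians of 0.35 and 0.37.

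Among 14 tested nuclear regulators of these genes, 4 were higher and 4 lower, with a median of 0.18, or 0.13 with chromosome medians subtracted. The share called was 57.1%, near the 54.6% of all tested genes. Nrf1 itself had 37.9 and 37.5 CPM in MK1 and 51.8 and 52.0 CPM in MK2 (0.46, adjusted p = 0.00827), and Gabpa, the DNA-binding subunit of GABP, had 60.7 and 63.2 CPM against 91.3 and 78.6 CPM (0.45, adjusted p = 0.0151). Both were higher in both MK2 libraries. Gabpa lies on chromosome 16, whose other genes had a median change of 0.28, and Nrf1 on chromosome 6, where it was -0.03. Exons of Gabpa overlap those of Atp5j, so its count is less certain. Pprc1, a coactivator of the PGC-1 family, was higher by 0.76, while Nrip1, a corepressor of nuclear receptors, changed by -0.99. The remaining calls, named after their values were seen, were Myc at 0.31, Esrra at -0.34, Ppard at -0.50 and Ppara at -2.30. Ppara was low in both lines, with 2.40 and 2.23 CPM in MK1 and 0.556 and 0.388 CPM in MK2. Ppargc1a, the best known coactivator of mitochondrial genes, was close to absent, with 0.0397 CPM as its highest level.

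Of 14 genes for mitochondrial DNA upkeep and transcription, 5 were higher and none lower, with a median of 0.15. The shares over all tested genes, for this list and those below, were 25.9% higher and 28.6% lower. The helicase Twnk, listed as Peo1, changed by 0.80. The 16 tricarboxylic acid cycle and pyruvate dehydrogenase genes gave 2 higher and 1 lower calls and a median of 0.12, with Idh3b, a subunit of NAD-dependent isocitrate dehydrogenase, at 0.51 and Ogdh, of the oxoglutarate dehydrogenase complex, at -0.47. Of 20 genes for protein import and outer membrane channels, 10 were higher and none lower, with a median of 0.36. With chromosome medians subtracted, the medians of these lists, in the order given, were 0.22, 0.25 and 0.43. Tomm5, a small subunit of the outer membrane import pore encoded on chromosome 4, went from 19.8 and 25.5 CPM in MK1 to 69.0 and 59.4 CPM in MK2 (1.505 ± 0.16, adjusted p = 0.000428).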

How the data were processed

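For 4 libraries the authors deposited unnormalised read counts by gene symbol, made, per the file headers, with featureCounts 1.4.6-p4 on TopHat alignments, summing exons by gene name on UCSC mm10. Per the submitters' processing notes, reads were aligned with TopHat2 2.0.13 on Bowtie2 2.2.6 and processed by featureCounts 1.5.0, and DESeq2 1.10.1 was used. The command set no strand or multi-mapping option, so 25 members that share 10% or more of their sequence (50-base words) or exon bases with other genes are uncertain. Per the labels' protocols, libraries came from a TruSeq kit.

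The test was that of edgeR 4.0.16 under R 4.3.3 (filterByExpr minimum count 10, TMM, quasi-likelihood F test, two-sided, Benjamini-Hochberg threshold 0.05 over all genes). An SE is the size of the log2 fold change over the square root of F. CPM used TMM-scaled library sizes and TPM the deposited gene lengths. The procedure was tested on simulated data. Alternatives used DESeq2 1.42.0, other scalings and filters, libraries left out, a replicate block and gene-length trends. Of 193 listed symbols, 192 were found, 10 of them through a synonym. No count column lacked a sample (0). Figures used matplotlib 3.10.9.

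Named in each complex were the 3 largest called changes, higher and lower, at 10 or more CPM, the highest by TPM and the smallest change. Also named were the core list, isoform families and untested members. In other lists, the largest called rise and fall at 10 or more CPM were named. Members and lists were chosen with earlier results of these data known. The values of 1 member are not reported here, though it is in all counts. Replicate numbers did not pair the lines.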

Additional observations from a re-analysis of the deposited data

How the results depend on the processing

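Under the alternatives, 3716 to 6847 of all genes were called with 1 library left out, against 6810 with all. The members called higher ranged from 4 to 30 and those called lower from 0 to 3 when 1 library was left out, with the lowest counts without MK1 replicate 1 (3716 genes, 4 and 0) and without MK1 replicate 2 (4369 genes, 14 and 0). Left out singly, MK1 replicate 1 ended 26 of the 30 member calls, MK1 replicate 2 ended 17, MK2 replicate 1 ended 3 and MK2 replicate 2 ended 9, and a line with 1 library left is assumed to vary like the other. The members' median stayed above 0, between 0.16 and 0.25 with 1 library left out. DESeq2 gave 28 higher and 2 lower, and upper-quartile scaling 20 and 2.

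The replicate number did not pair the lines (correlation of deviations -0.15 over 12479 genes). With the number as a replicate block, 5908 genes, 21 members higher and 1 lower were called, and with the crossed block, added after seeing the data, 7454, 31 and 1. The lower count was 2 in the main comparison and 1 with no count filter, with the replicate block, with the gene-length trend removed with or without that block, with the crossed block and without members that share sequence. It was 5 with a robust length trend, added after seeing the data, which gave 22 higher and a median of 0.13. The least-squares length trend raised the median of all genes by 0.22, so that its 37 higher calls and median of 0.28 leave members only 0.07 above all genes, and 64.8% of all called genes higher against 47.5%. The causes of these changes were not tested.

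The sign of the change depended on the setting for 23 of the 75 tested members, 22 of them not called in the main comparison and 1 called lower, which crossed 0 with the length trend removed, without and with the block. Of those named by rule, 9 reversed as follows. With the length trend removed, without and with the replicate block, Sdha gave 0.13 and 0.13, Uqcrfs1 0.14 and 0.14, Atp5b 0.28 and 0.28, and Ndufa3 -0.16 and -0.16. The robust trend gave 0.0025 for Atp5b, -0.059 for Ndufa2, -0.21 for Ndufa3 and -0.015 for Cox5a. Upper-quartile scaling gave -0.037 for Ndufs1, -9.11e-05 for Sdhd and -0.043 for Ndufa3, and library size alone -0.0022 for Ndufa3. With 1 library left out, Ndufs1 ranged from -0.032 to 0.067, Atp5b from -0.088 to 0.052, Ndufa3 from -0.066 to 0.096, Uqcrb from -0.14 to 0.054, and Cox5a from -0.032 to 0.19. Depth limits the 7 tissue isoforms, for which a level of under 3 counts in a library cannot be told from 0.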
